A study of Mus musculus with 4 samples.

Results

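Split peaks are stretches of enriched chromatin that the peak caller cut into several summits, each marked by a letter added to the name of the peak. They were collected from 4 CUT&RUN peak lists of mouse medullary thymic epithelial cells, 2 lists of mTEChi cells and 2 of mTEClo cells, by keeping every listed summit whose name ends in a lower-case letter and joining summits with the same name. They were thus selected on the caller's letters, which it sets from the same signal as its scores. This gave 7822 split peaks among 315456 called peaks, the other 307634 being single-summit peaks, and the split peaks merged into 7163 loci across the 4 lists. Both populations came from the thymi of mice aged 4 to 5 weeks, were wild type for Trp53, and were sorted after enrichment of EpCAM+ cells with magnetic beads; 500000 cells were used per condition. The antibody is given as anti-p53 in the titles but as anti-BAF155, which would mark BAF chromatin remodellers, in the protocol; the labels do not settle which was used. No control antibody and no RNA were analysed here, so the cell type labels could not be checked by expression, and no source used here says whether the replicates came from separate mice; p-values over libraries therefore measure only how these libraries vary, and that variation may be technical.

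CUT&RUN releases DNA around an antibody bound to chromatin by tethering a nuclease to it, so each peak marks a place where fragments pile up. A peak caller that looks for several maxima inside 1 enriched stretch reports each as a summit. At active promoters a nucleosome-depleted stretch lies beside the transcription start, and genes that face away from each other can share such a stretch as a bidirectional promoter. Medullary thymic epithelial cells display self-antigens to maturing thymocytes. By convention the hi cells carry much surface MHC class II and include the Aire-expressing cells, and the lo cells carry little.

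The loci split in all 4 libraries lie mostly at promoters, and the promoter windows of 6 genes at these loci are printed to show the DNA under the recurrent summits. Each window runs from 250 bases before to 50 bases after an annotated start, is written 5′ to 3′ on the strand of the gene, and comes from RefSeq (GRCm38.p6). Capitals mark GC boxes, the letters GGGCGG or their reverse complement CCGCCC, which Sp family factors are known to bind. The windows are chr14:55590972-55591271 (minus strand) for Psme2, chr16:91729121-91729420 (plus) for Itsn1, chr9:13827466-13827765 (plus) for Fam76b, chr11:121236986-121237285 (plus) for Narf, chr17:17624440-17624739 (minus) for Lnpep and chr7:25237802-25238101 (minus) for Gsk3a.
Psme2: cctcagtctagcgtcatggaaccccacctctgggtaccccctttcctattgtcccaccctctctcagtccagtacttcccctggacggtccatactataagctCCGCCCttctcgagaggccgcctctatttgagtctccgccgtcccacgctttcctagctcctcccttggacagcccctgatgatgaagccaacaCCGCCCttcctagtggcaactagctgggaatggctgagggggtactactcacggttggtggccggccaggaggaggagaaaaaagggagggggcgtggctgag
Itsn1: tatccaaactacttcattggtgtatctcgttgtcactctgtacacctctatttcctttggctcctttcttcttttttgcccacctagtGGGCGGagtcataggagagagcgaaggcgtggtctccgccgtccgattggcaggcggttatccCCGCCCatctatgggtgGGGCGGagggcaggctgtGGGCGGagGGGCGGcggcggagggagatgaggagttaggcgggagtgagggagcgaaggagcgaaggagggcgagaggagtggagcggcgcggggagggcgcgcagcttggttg
Fam76b: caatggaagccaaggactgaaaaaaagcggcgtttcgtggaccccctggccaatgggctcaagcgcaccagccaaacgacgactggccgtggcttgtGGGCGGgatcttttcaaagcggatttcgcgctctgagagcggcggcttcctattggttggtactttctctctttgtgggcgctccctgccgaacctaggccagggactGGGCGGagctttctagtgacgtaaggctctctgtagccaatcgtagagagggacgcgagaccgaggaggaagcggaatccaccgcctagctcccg
Narf: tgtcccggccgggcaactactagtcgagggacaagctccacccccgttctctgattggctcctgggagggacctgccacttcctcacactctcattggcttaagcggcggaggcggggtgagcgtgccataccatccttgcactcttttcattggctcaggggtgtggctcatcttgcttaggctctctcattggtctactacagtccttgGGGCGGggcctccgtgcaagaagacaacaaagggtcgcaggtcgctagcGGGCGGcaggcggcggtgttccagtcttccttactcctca
Lnpep: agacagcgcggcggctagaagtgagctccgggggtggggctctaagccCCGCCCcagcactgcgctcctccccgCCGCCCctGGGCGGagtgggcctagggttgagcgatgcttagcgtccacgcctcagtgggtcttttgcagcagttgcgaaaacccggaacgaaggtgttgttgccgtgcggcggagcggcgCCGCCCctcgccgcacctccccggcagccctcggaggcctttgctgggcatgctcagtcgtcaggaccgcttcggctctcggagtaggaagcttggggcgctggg
Gsk3a: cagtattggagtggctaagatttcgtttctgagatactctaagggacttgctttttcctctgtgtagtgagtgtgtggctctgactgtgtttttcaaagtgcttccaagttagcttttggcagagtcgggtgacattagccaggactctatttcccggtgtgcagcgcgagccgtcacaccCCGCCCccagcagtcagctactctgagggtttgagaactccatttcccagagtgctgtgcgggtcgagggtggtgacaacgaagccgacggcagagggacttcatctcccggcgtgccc
A summit of a split peak lay inside the Psme2, Itsn1, Fam76b and Narf windows in all 4 libraries and inside the Lnpep and Gsk3a windows in 3. The number of GC boxes was 5 in Itsn1, 4 in Lnpep, 2 each in Psme2, Fam76b and Narf, and 1 in Gsk3a. The CCAAT letters, on either strand, were found in Itsn1, Fam76b, Narf and Gsk3a.

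The number of split peaks varied more between replicates than between cell states. The lists held 2344 and 1188 split peaks in mTEChi replicates 1 and 2, against 2871 and 1419 in mTEClo replicates 1 and 2. Replicate 1 had about the same share in both states, 3.23% of called peaks in mTEChi and 3.23% in mTEClo, while replicate 2 had 1.40% in mTEChi and 2.06% in mTEClo. The mean was 1766 ± 817 split peaks in mTEChi and 2145 ± 1027 in mTEClo (SD, n = 2 each), a difference of -379 (two-sided exact permutation test, p = 0.667). The mean share was 2.31 ± 1.29% in mTEChi and 2.64 ± 0.828% in mTEClo (exact permutation test, p = 1). The smallest p that 2 libraries against 2 can give is 0.33, so no difference between the states could pass a threshold of 0.05. Without mTEChi replicate 2 the difference in number was 199 and without mTEClo replicate 1 it was 347, so its sign rests on single libraries. The number did not follow list length: mTEChi replicate 2 had the fewest split peaks in a list of 85308 summits, and mTEChi replicate 1 had more of them in 73510; the mTEClo lists held 89809 and 69359 summits.

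**Figure D1:**
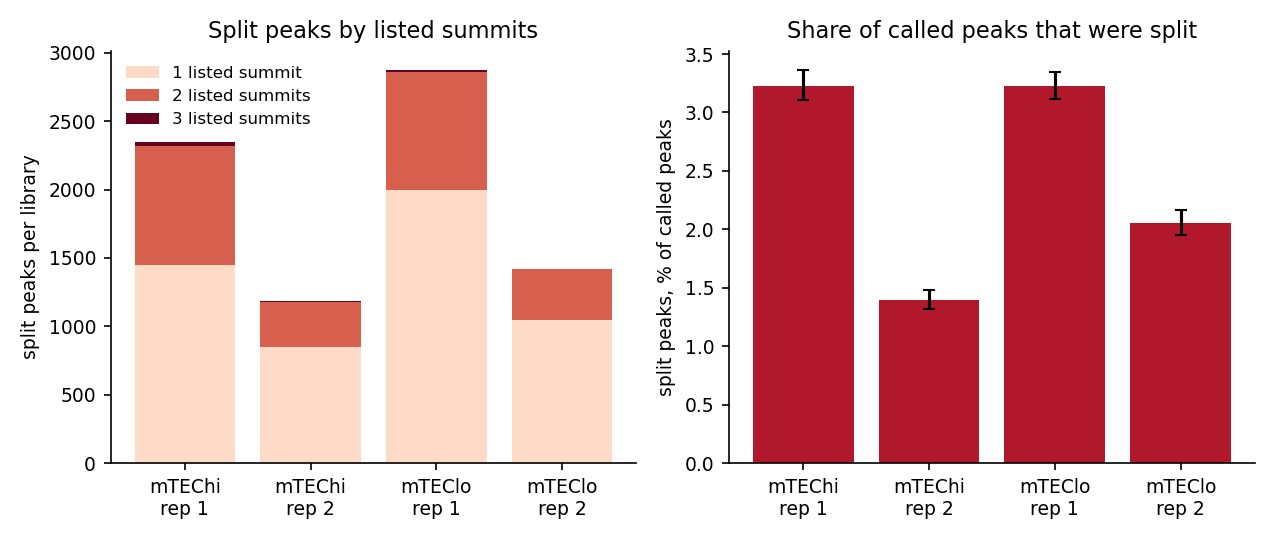
Left, number of split peaks in each of the 4 libraries, stacked by how many summits the list still holds; right, split peaks as a percent of called peaks, with 95% Wilson intervals that cover counting error only. The first replicate of each state stands above the second, with 3.23% against 1.40% in mTEChi and 3.23% against 2.06% in mTEClo.

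Most split peaks kept only 1 of their summits in the deposited lists. A single letter-marked summit remained for 1450 split peaks (61.9%) in mTEChi replicate 1, 852 (71.7%) in mTEChi replicate 2, 1995 (69.5%) in mTEClo replicate 1 and 1044 (73.6%) in mTEClo replicate 2. In the same order, 867, 329, 864 and 372 split peaks kept 2 summits, and 27, 7, 12 and 3 kept 3. The letters ran to d in 5 split peaks of mTEChi replicate 1 and 7 of mTEClo replicate 1 and to no further than c in both second replicates. A letter before the last one kept was missing in 34.0% to 36.9% of split peaks per list. No deposited intervals overlapped, and the closest summits of 1 split peak stood 302 bp apart in every list, just beyond the width of a deposited interval, so summits closer than that are not in the lists.

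Widths could be read only as the distance between listed summits, since the lists do not hold the boundaries of the called peaks. The median distance between the first and last listed summit, in split peaks with at least 2, was 377 and 359 bp in mTEChi and 363 and 353 bp in mTEClo, and the widest reached 1150 and 901 bp in mTEChi and 953 and 1013 bp in mTEClo. Since the full widths are unknown, these peaks are called split peaks here and not broad peaks. Neighbouring summits stood a median of 375 and 357 bp apart in mTEChi and 361 and 353 bp in mTEClo, and between 61.1% and 71.2% of the spacings were under 400 bp. The means of the library medians were 366 ± 12.7 bp in mTEChi and 357 ± 5.66 bp in mTEClo (SD, n = 2 each; two-sided exact permutation test, p = 0.667). The mean number of listed summits was 1.34 ± 0.0737 in mTEChi and 1.29 ± 0.0303 in mTEClo (SD, n = 2 each; exact permutation test, p = 0.667).

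The widest split peak of mTEChi replicate 1 lay at the start of Zfp91, a zinc finger protein gene, at chr19:12795540-12796990, with summits a, b and d scoring 4.46, 12.8 and 3.64. In mTEChi replicate 2 and mTEClo replicate 2 the widest split peak lay inside Crlf2, the gene of a receptor chain for the cytokine TSLP. It was among the 7 and 3 split peaks of these lists that kept 3 summits, the most in any list. The widest in mTEClo replicate 1 lay at Arfip1 (chr3:84582125-84583378), a gene for a binding partner of ARF GTPases. Of the 12 split peaks of mTEClo replicate 1 that kept 3 summits, 1 lay at Slc27a1 (chr8:71569510-71570731), a fatty acid transporter gene. Of the 27 in mTEChi replicate 1, 1 lay at chr8:4677312-4678698, 44740 bp from its nearest gene Zfp958.

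Split peaks scored higher than single-summit peaks, as a description only, since the caller splits peaks on the same signal that it scores. The score is the authors' own, the −log10 of a p or q value, and is used within a list alone. The median of the best score was 5.57 for split peaks against 3.62 for single-summit peaks in mTEChi replicate 1, and 4.54 against 3.34 in mTEChi replicate 2. It was 5.52 against 4.10 in mTEClo replicate 1 and 4.93 against 3.94 in mTEClo replicate 2. Of the 500 highest peaks of each list, 54 and 43 were split in mTEChi and 38 and 32 in mTEClo. The highest split peaks lay at Ppm1b, a protein phosphatase gene, with a score of 67.3 in mTEChi replicate 1, and at Cic, a transcriptional repressor gene, with 72.5 in mTEChi replicate 2 and 49.8 in mTEClo replicate 1. In mTEClo replicate 2 the highest, at 53.4, lay 307 bp from Sp1, the gene of a factor that binds GC boxes.

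By chromosome coordinate, regardless of gene strand, neither side of a split peak led in all 4 libraries. The sides nearer to and farther from a gene start were not compared. Among split peaks with exactly 2 listed summits, the summit with the higher coordinate scored more in 438 and 171 in mTEChi and in 421 and 187 in mTEClo, and the one with the lower coordinate in 405 and 150 in mTEChi and in 422 and 173 in mTEClo. Of the 2 scores of each peak, the median of the higher was 7.32 and 6.61 in mTEChi and 6.93 and 6.004 in mTEClo. That of the lower was 4.08 and 3.83 in mTEChi and 4.10 and 3.82 in mTEClo. Sorting the 2 scores fixes this order, so the gap is a description only. The scores were equal in 24 and 8 split peaks in mTEChi and in 21 and 12 in mTEClo.

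Split peaks lay at the ends of protein-coding genes more often than single-summit peaks in all 4 libraries. Within 1 kb of either gene end there was a summit in 26.2% of split peaks against 10.8% of single-summit peaks in mTEChi replicate 1, and in 29.5% against 9.51% in mTEChi replicate 2. The shares were 27.4% against 12.0% in mTEClo replicate 1 and 24.0% against 11.1% in mTEClo replicate 2. The Wilson 95% intervals for split peaks ran from 24.4 to 27.97% and from 26.9 to 32.1% in mTEChi and from 25.8 to 29.0% and from 21.8 to 26.2% in mTEClo, and cover counting error only. The split minus single difference averaged 15.9 percentage points over the 4 libraries (SD 2.94, lowest 12.9, highest 19.9). All 4 differences were positive, and the two-sided exact sign-flip permutation test gave p = 0.12, the smallest that 4 libraries can give. Between the states the share averaged 27.8 ± 2.34% in mTEChi and 25.7 ± 2.42% in mTEClo (SD, n = 2 each; exact permutation test, p = 0.667).

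**Figure D2:**
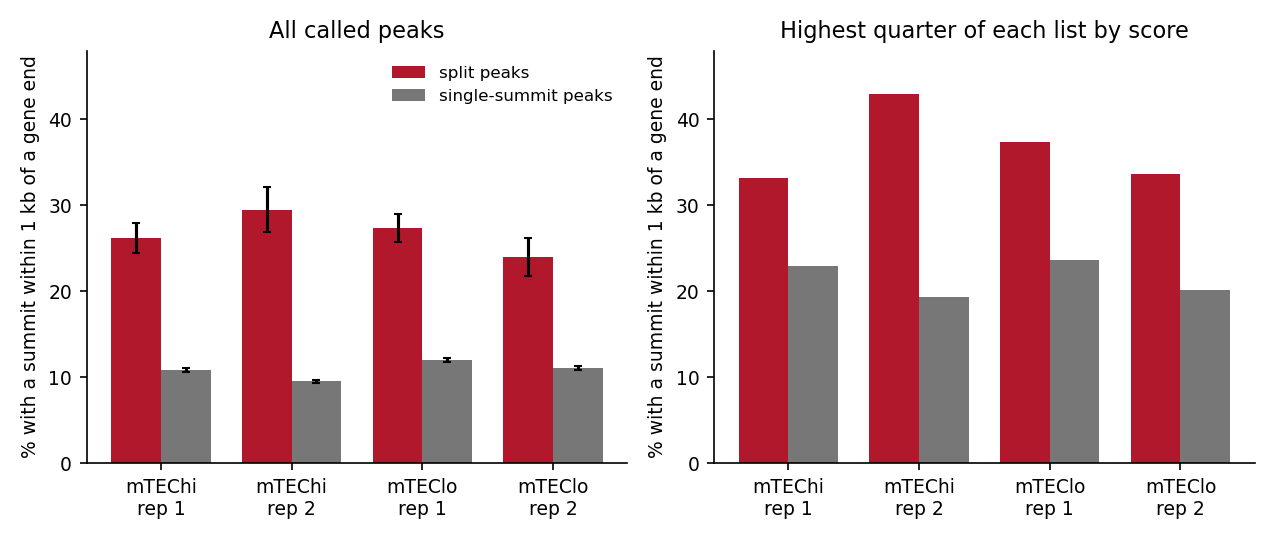
Percent of split peaks (red) and of single-summit peaks (grey) with a summit no farther than 1 kb from a protein-coding gene end, for all called peaks with 95% Wilson intervals (left) and for the highest 25% of each list by score without intervals (right). The red bar is above the grey bar in each of the 4 libraries on both sides, by 12.9 to 19.9 percentage points on the left.

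Score and the number of summits moved with this share, and their part in it was not tested beyond the following values. Within the highest 25% of each list by score, 33.2% and 42.9% of split peaks lay near a gene end in mTEChi and 37.4% and 33.7% in mTEClo, against 23.0% and 19.4% of single-summit peaks in mTEChi and 23.7% and 20.1% in mTEClo. Split peaks that kept 1 summit, whose interval is as wide as that of a single-summit peak, gave 22.7% and 21.4% in mTEChi and 23.5% and 21.4% in mTEClo. Those that kept 2 gave 31.6% and 49.8% in mTEChi and 36.1% and 31.5% in mTEClo. Split peaks lay inside genes, farther than 1 kb from an end, in 38.5% and 37.6% in mTEChi and 39.2% and 41.2% in mTEClo, against 43.2% and 44.7% of single-summit peaks in mTEChi and 43.5% and 43.7% in mTEClo. The remaining share between genes was 35.4% and 32.9% of split peaks in mTEChi and 33.5% and 34.9% in mTEClo, against 46.0% and 45.8% of single-summit peaks in mTEChi and 44.5% and 45.2% in mTEClo.

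Around transcription starts the summits of split peaks were spread more widely than those of single-summit peaks. Of summits within 1 kb of a start, 39.7% and 44.0% lay within 150 bp of it for split peaks in mTEChi and 46.7% and 46.8% in mTEClo, against 53.2% and 49.5% for single-summit peaks in mTEChi and 52.6% and 51.4% in mTEClo. The median distance to the start was 193.5 and 175 bp for split peaks in mTEChi and 167 and 163 bp in mTEClo, against 140 and 152 bp for single-summit peaks in mTEChi and 138 and 144 bp in mTEClo. A split peak that keeps 2 summits cannot have both within 150 bp of the same start, so this spread is in part fixed by how the peaks were chosen and is given without a test. Where a split peak with at least 2 listed summits had a start within 1 kb, the start lay between the outer summits in 130 of 256 (50.8%) and 79 of 147 (53.7%) in mTEChi and in 169 of 300 (56.3%) and 61 of 112 (54.5%) in mTEClo.

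**Figure D3:**
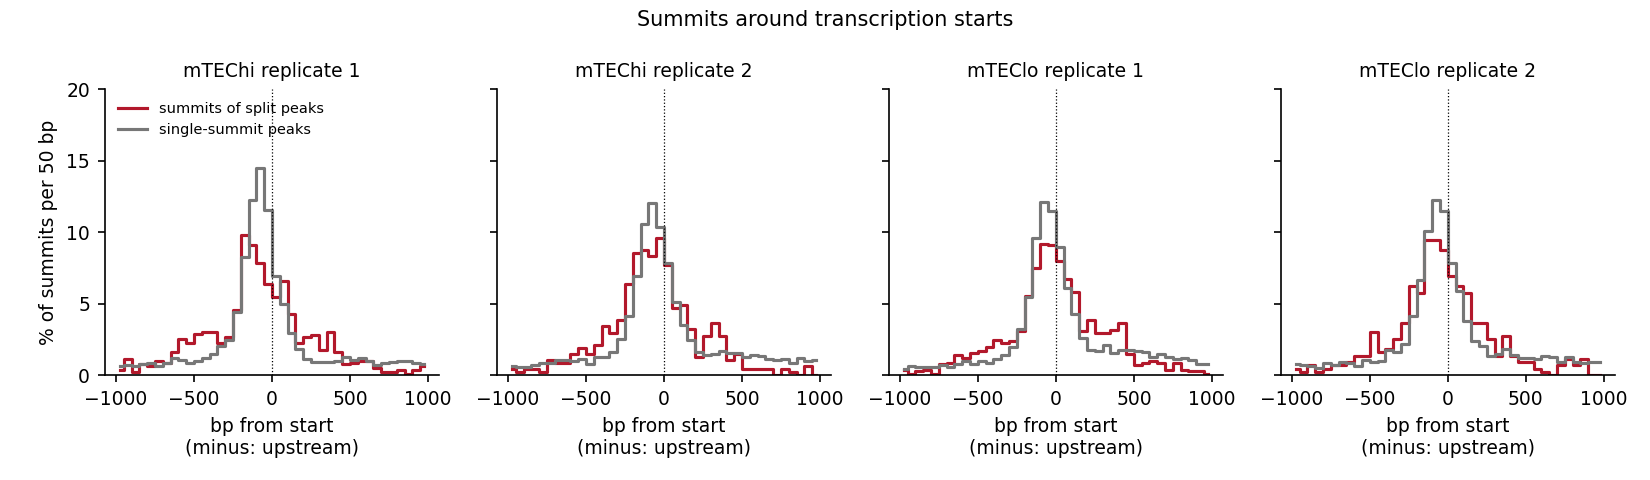
Distance of each summit from its nearest transcription start, in bins of 50 bp, as a percent of the summits within 1 kb, with split peaks in red and single-summit peaks in grey, and upstream distances negative. In all 4 libraries the grey line has the higher maximum near the start, and the red line has shoulders to either side.

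For the GC box, the CCAAT letters, the Ets core and the p53 unit, split and unsplit windows did not differ in the same direction in all 4 libraries. Split windows are promoter windows with split summits, and unsplit windows those with unsplit summits. In 21045 promoter windows of 17274 genes, the median GC content was 60.0% and 61.0% in windows with split summits in mTEChi and 62.0% and 62.3% in mTEClo, against 60.7% and 61.0% in windows with unsplit summits in mTEChi and 61.7% and 61.3% in mTEClo, 52.7% in windows with no peak and 56.7% in all windows. A GC box was present in 65.7% of windows with split summits against 68.8% with unsplit ones in mTEChi replicate 1, 69.2% against 69.0% in mTEChi replicate 2, 68.5% against 68.5% in mTEClo replicate 1 and 73.5% against 68.6% in mTEClo replicate 2, and in 46.7% of all windows. The CCAAT letters, the core of the NF-Y site, stood in 47.3% against 50.8% in mTEChi replicate 1, 49.8% against 50.01% in mTEChi replicate 2, 49.7% against 46.6% in mTEClo replicate 1 and 53.5% against 49.2% in mTEClo replicate 2, and in 38.5% of all windows. The Ets core CCGGAAG stood in 22.1% against 23.4% in mTEChi replicate 1, 23.7% against 23.6% in mTEChi replicate 2, 21.7% against 21.2% in mTEClo replicate 1 and 13.9% against 22.2% in mTEClo replicate 2, and in 11.7% of all windows. The 10-base unit of the p53 response element, searched by its letter pattern, stood in 8.71% against 6.46% in mTEChi replicate 1, 4.66% against 7.003% in mTEChi replicate 2, 8.90% against 6.16% in mTEClo replicate 1 and 8.98% against 6.72% in mTEClo replicate 2, and in 7.37% of all windows. More motifs were searched than these. Among the others, a motif named the CGCG core was lower in windows with split summits in all 4 libraries. It stood in 5.22% against 5.70% in mTEChi replicate 1 and 5.02% against 6.04% in mTEChi replicate 2. In mTEClo it stood in 5.03% against 5.21% in replicate 1 and 4.90% against 5.57% in replicate 2. These differences were not tested. All motifs were searched on both strands without regard to overlap between them, and a match describes the letters only.

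Split peaks were met by a peak of the other library of their state more often than single-summit peaks were. Any peak of the other replicate met 50.9% and 54.1% of split peaks in mTEChi and 45.1% and 55.7% in mTEClo, against 17.2% and 15.2% of single-summit peaks in mTEChi and 17.5% and 23.1% in mTEClo. The split minus single difference averaged 33.2 percentage points (lowest 27.6, highest 39.0), was positive in 4 of 4 libraries, and had p = 0.12 by the two-sided exact sign-flip permutation test. The 2 libraries of a state were compared with each other in both directions, so these 4 values are not independent of each other. With split peaks that kept 1 summit the shares were 38.6% and 43.5% in mTEChi and 37.0% and 47.9% in mTEClo. Within the highest 25% by score they were 67.4% and 76.3% for split peaks in mTEChi and 65.9% and 78.6% in mTEClo, against 42.4% and 34.7% for single-summit peaks in mTEChi and 41.4% and 45.2% in mTEClo.

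The split form recurred at a low rate. Another split peak in the second library of the same state met 6.61% and 13.1% of split peaks in mTEChi and 5.22% and 10.6% in mTEClo. In the 8 ordered pairs across states it was between 3.94% and 9.51%, so the ranges overlapped. The split peaks of mTEChi replicate 1 met a split peak more often in mTEClo replicate 1, at 8.40%, than in mTEChi replicate 2, at 6.61%. These lists differ in size, with 2871 split peaks in mTEClo replicate 1 and 1188 in mTEChi replicate 2. Single-summit peaks of mTEChi replicate 1 went the same way, at 1.33% against 0.722%. Single-summit peaks met a split peak in 0.722% to 1.80% within a state and in 0.571% to 1.33% across states. Of split peaks with at least 2 listed summits, between 47.1% and 51.7% were met in the other library of their state by 1 unsplit peak, 9.36% to 25.9% by a split peak, 3.87% to 9.28% by several unsplit peaks, and 19.0% to 36.3% by none.

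**Figure D4:**
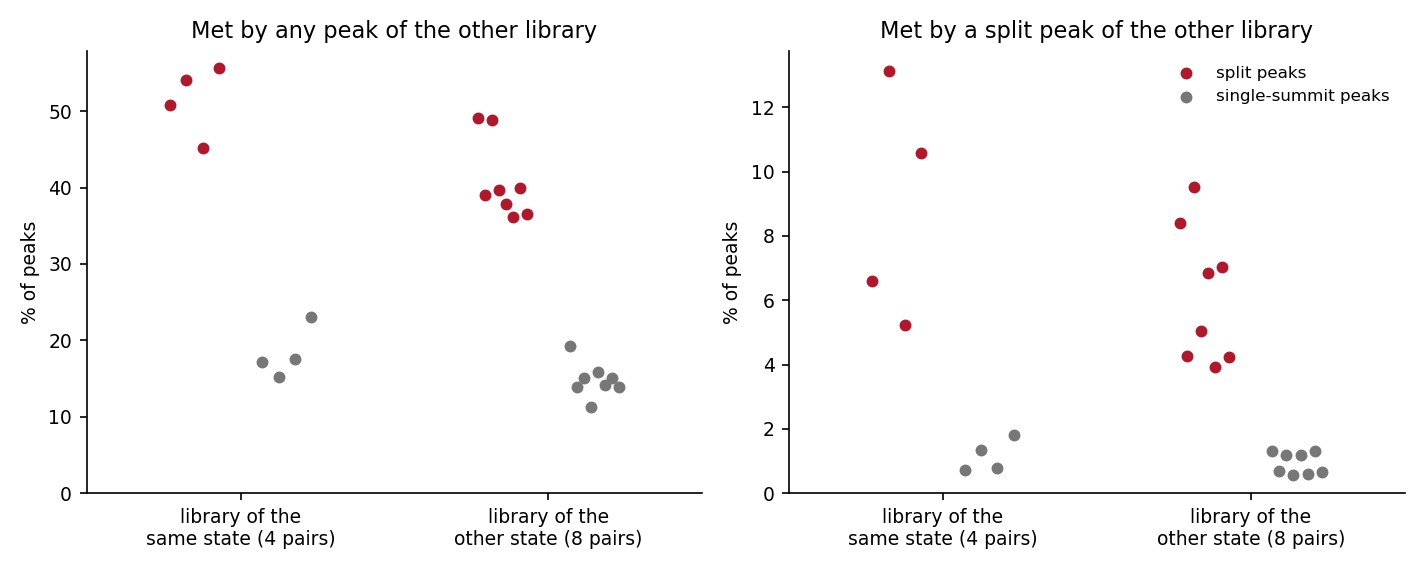
Percent of split peaks (red) and single-summit peaks (grey) of a library that were met by any peak (left) or by a split peak (right) of another library, with 1 point per ordered pair of libraries. On the left the red points of the same state, 45.1% to 55.7%, stand above the grey ones, 15.2% to 23.1%; on the right the red points of the same state and of the other state overlap.

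Merged over the 4 lists, 6612 of the 7163 loci (92.3%) were split in 1 library, 464 (6.48%) in 2, 68 (0.949%) in 3 and 19 (0.265%) in all 4. A peak of any form was listed in all 4 libraries at 1462 loci (20.4%), beside 2.01% of the 258370 merged regions of all called peaks. Both mTEChi and no mTEClo library held a peak at 373 split loci (5.21%), beside 1.82% of all merged regions, and both mTEClo and no mTEChi library at 586 (8.18%), beside 2.74%. Split peaks score higher and their loci are wider, so these shares describe them and are not a test. At 2755 loci (38.5%) no other library held a peak. The share with an interval within 1 kb of a gene end was 23.7% of loci split in 1 library (Wilson 95% interval 22.7 to 24.7%), 45.5% in 2 (41.0 to 50.02%), 58.8% in 3 (47.0 to 69.7%) and 73.7% in 4 (51.2 to 88.2%). The merged intervals widen with the number of libraries, from a median of 697.5 bp in 2 to 920 bp in 4, which adds to these shares; its part was not tested.

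Loci split in more libraries had divergent genes, which face away from each other, at higher shares, with wide intervals for the few loci split in 3 or 4. Of loci with a start within 1 kb of their middle, both starts of a divergent pair were this near in 116 of 1314 (8.83%) split in 1 library, 38 of 199 (19.1%) split in 2, 8 of 37 (21.6%) split in 3 and 5 of 14 (35.7%, Wilson 95% interval 16.3 to 61.2%) split in all 4. Among regions with a peak in all 4 libraries, the share was 45 of 191 (23.6%, 18.1 to 30.1%) for loci split in 2 or more libraries, against 58 of 527 (11.01%) for those split in 1 and 223 of 1656 (13.5%, 11.9 to 15.2%) for regions never split. Where divergent starts stood 300 to 1000 bp apart under a split peak with at least 2 listed summits, each start had its own summit within 250 bp in 13 of 19 and 11 of 13 in mTEChi and in 13 of 17 and 9 of 9 in mTEClo. Listed summits of 1 split peak stood at least 302 bp apart, so these limits shape the counts. No comparison group was counted, and the counts are a description only.

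Of the 19 loci split in all 4 libraries, 15 had a transcription start within 1 kb, 5 had divergent genes, and 6 kept at least 2 summits in every library. They were 759 to 1370 bp wide. The leading one (chr14:55591017-55591835) lies between Psme2, which encodes a subunit of the PA28 proteasome activator, and Rnf31, which encodes the catalytic subunit of the linear ubiquitin ligase complex, with starts 641 bp apart. The summit on the Psme2 side scored 28.8 and 11.7 in mTEChi and 21.9 and 6.29 in mTEClo, and stood 111 and 66 bp upstream of the gene's start in mTEChi and 93 and 70 bp in mTEClo. The summit on the Rnf31 side scored 20.7 and 10.2 in mTEChi and 11.9 and 13.9 in mTEClo, and stood 170 and 107 bp upstream of that start in mTEChi and 199 and 57 bp in mTEClo. Each gene thus had its own summit in all 4 libraries, and the Rnf31 side was the higher in mTEClo replicate 2 only.

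The locus chr16:91728355-91729362 lies between Cryzl1, which encodes a quinone oxidoreductase-like protein, and Itsn1, which encodes an endocytic scaffold, with starts 569 bp apart. On the Itsn1 side, inside the printed window, the summit scored 25.5 and 19.2 in mTEChi and 10.4 and 13.0 in mTEClo. The Cryzl1 side scored 8.51 and 5.68 in mTEChi and 5.89 and 7.08 in mTEClo. The Itsn1 side was the higher in all 4 libraries.

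At Cep57, a centrosome protein gene, and Fam76b (chr9:13826897-13827730, starts 609 bp apart), the summit inside the printed Fam76b window scored 50.8 and 38.7 in mTEChi and 34.2 and 27.8 in mTEClo. A summit at the Cep57 side was listed in 3 libraries, with 11.5 in mTEChi replicate 2 and 12.4 and 4.65 in mTEClo; in mTEChi replicate 1 only letter b remained. At Rita1 and Ddx54 (chr5:120612635-120613472, starts 541 bp apart), genes of an RBPJ-binding protein and of an RNA helicase, the Rita1 side scored 31.9 and 20.3 in mTEChi and 8.87 in mTEClo replicate 2, and the Ddx54 side 30.7 and 11.1 in mTEChi and 6.78 in mTEClo replicate 2. In mTEClo replicate 1 the lone summit at Ddx54, with 14.6, lay between these positions. The fifth pair, Arfrp1 and Zgpat, has starts 19 bp apart (chr2:181364906-181365723), and there 1 letter-marked summit was listed in both mTEChi libraries and in mTEClo replicate 1, and 2 in mTEClo replicate 2.

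**Figure D5:**
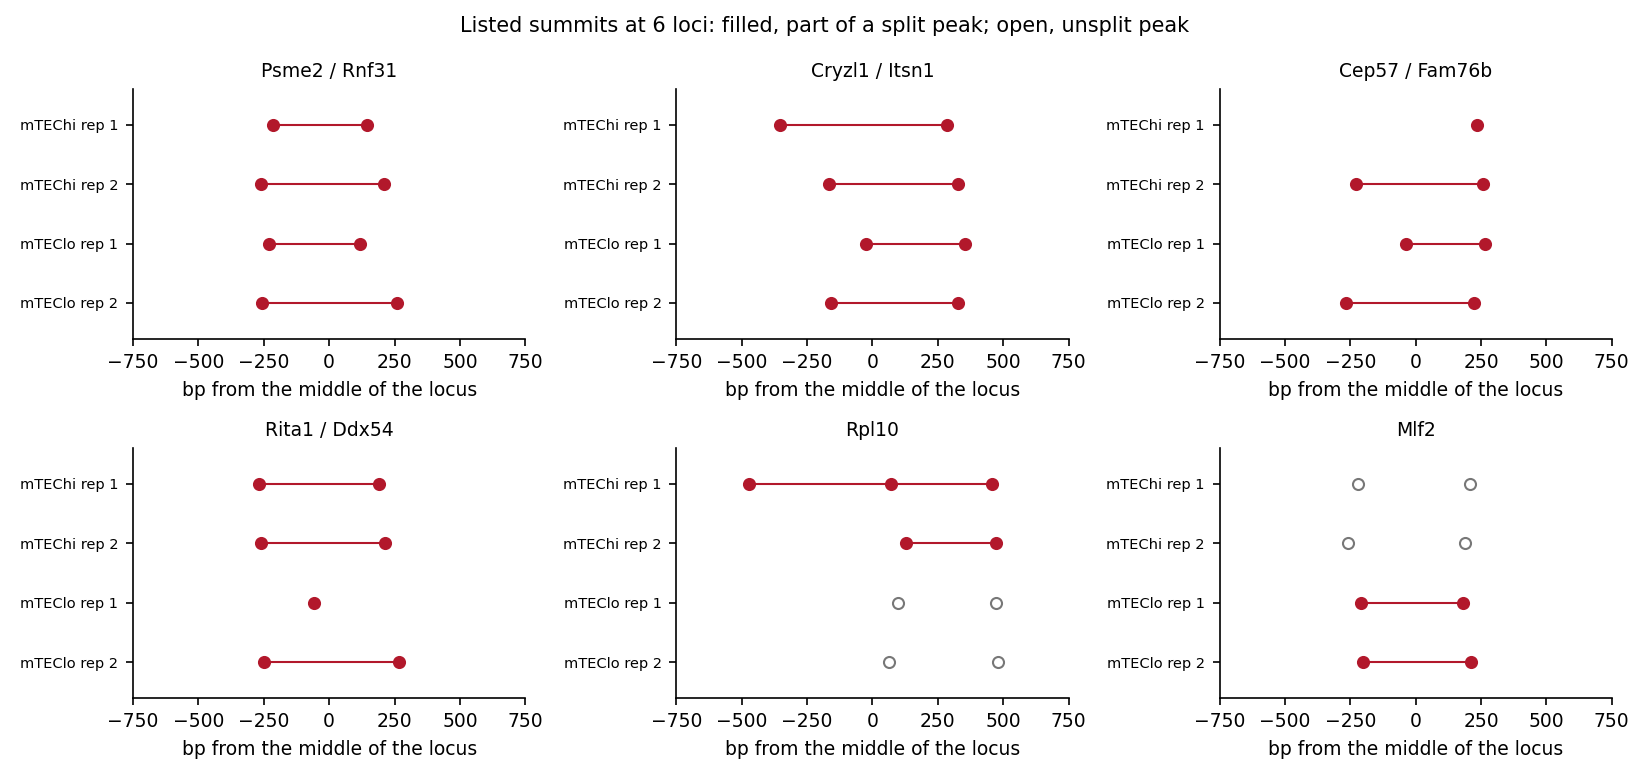
Position of every listed summit in each library at 6 loci, in bp from the middle of the locus along the chromosome; filled points joined by a line belong to 1 split peak and open points are unsplit peaks. The first 4 loci have divergent genes, with 2 filled points in most libraries, while at Rpl10 and Mlf2 the positions found in both states are joined in 1 state and separate in the other.

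Other recurrent loci had a single gene start. At Lnpep (chr17:17624511-17625462), which encodes insulin-regulated aminopeptidase, the summit nearer the start scored 12.7 and 10.9 in mTEChi and 13.8 and 10.5 in mTEClo, and the upstream one 7.46 and 6.11 in mTEChi and 22.9 and 7.67 in mTEClo. The nearer summit stood 268 and 204 bp from the start in mTEChi and 233 and 172 bp in mTEClo, with the upstream summit at 759 and 823 bp in mTEChi and 741 and 753 bp in mTEClo. At Gsk3a (chr7:25237743-25238809), a kinase gene, a summit 461 and 515 bp upstream of the start in mTEChi and 567 and 517 bp in mTEClo scored 18.2 and 9.28 in mTEChi and 13.2 and 5.38 in mTEClo. A nearer summit, inside the printed window, scored 9.07 in mTEChi replicate 2 and 6.78 and 4.34 in mTEClo; mTEChi replicate 1 listed one 808 bp upstream in its place, with 8.26. At Narf (chr11:121236448-121237367), whose product binds prelamin A, the summit nearer the start scored 30.9 and 12.0 in mTEChi and 10.8 and 9.15 in mTEClo.

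At Ppm1b (chr17:84956721-84957938), a summit 254 and 213 bp upstream of an annotated start belonged to the split peak in mTEChi, with 67.3 and 28.3, and was an unsplit peak of its own in mTEClo, with 36.2 and 21.0. Another summit, 467 and 482 bp past a second start of the gene in mTEChi and 408 and 465 bp in mTEClo, scored 8.58 and 8.28 in mTEChi and 6.86 and 8.70 in mTEClo. Both positions were thus present in all 4 libraries, joined in mTEChi and separate in mTEClo. Other loci had no summit within 1 kb of a start. Crlf2 (chr5:109556710-109558058) held 2 and 3 letter-marked summits in mTEChi and 2 and 3 in mTEClo more than 1 kb inside the gene. Its interval came within 935 bp of the start, so it counts among the 15 loci with a start within 1 kb. Gm20783 (chr9:124424491-124425860) held 2 in each library, and chr1:169271464-169272408 lay 225526 bp from the nearest protein-coding gene. The other 7 loci lay at or near Usp5, Dcaf11, Hnrnpul1, Carm1, Prdm10, Gm7827 and Slc29a2.

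Loci split in 1 state only, and there in both libraries, numbered 102 in mTEChi (1.42% of split loci) and 99 in mTEClo (1.38%). They are part of the 464 loci split in 2 libraries, and the rest of the 464 were split in 1 library of each state. The counts depend on what counts as split: with at least 2 listed summits they were 36 in mTEChi and 23 in mTEClo, and with summits above the median score 26 in mTEChi and 11 in mTEClo. Most were places where the other state had an unsplit peak: 89 of the 102 mTEChi loci and 77 of the 99 mTEClo loci. That left 13 mTEChi loci (0.181% of split loci) and 22 mTEClo loci (0.307%) with no peak in the other state. Counting a peak of any form in both libraries of 1 state only is looser. It gave 5.21% of split loci for mTEChi and 8.18% for mTEClo, beside 1.82% and 2.74% of all merged regions. All regions thus lean towards mTEClo as well. At 18 of the 89 and 11 of the 77, a library of the other state listed at least 2 unsplit peaks in the locus. A gene end lay within 1 kb of 42.2% of the mTEChi loci (Wilson 95% interval 33.0 to 51.9%) and 35.4% of the mTEClo loci (26.6 to 45.2%), intervals that overlap.

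Among mTEChi loci with no mTEClo peak, the leading ones lay inside Cmtm7 (chr9:114760509-114761207) and 27020 bp from Tnfrsf17 (chr16:11285519-11286212), a gene of B lineage cells that encodes a receptor for BAFF and APRIL. The 2 summits at Cmtm7 scored 10.3 and 8.01 in mTEChi replicate 1 and 12.9 and 6.12 in mTEChi replicate 2. Those near Tnfrsf17 scored 3.62 and 14.1 in replicate 1 and 4.66 and 6.61 in replicate 2. Another, at chr4:127076983-127077727, spanned the start of Zmym6, a zinc finger gene, with 8.46 and 3.62 in replicate 1 and 9.20 and 4.88 in replicate 2. The others named by the same rule lay in or near Gm46977, Dlg4, Mcmbp, Nectin3 and Hivep3, farther than 1 kb from a start.

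Of the 8 leading mTEClo loci with no mTEChi peak, only the first, inside Lfng (chr5:140610963-140611860), which encodes a glycosyltransferase that modifies Notch, kept 2 summits in both libraries, with 5.76 and 3.40 in mTEClo replicate 1 and 4.01 and 5.50 in mTEClo replicate 2. At Irak3 (chr10:120202017-120202332), which encodes an inhibitor of Toll-like receptor signalling, 1 letter-marked summit stood 37 and 52 bp upstream of the start, with 5.66 and 4.93. The other 6 lay in or near Hhat, Tnk2, Efcab1 and Scml4 and at chr17:14464840-14465415 and chr13:69263634-69264226, which have no protein-coding gene within 50 kb.

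At some of the loci where the other state had an unsplit peak, the difference was one of grouping. At Rpl10, a ribosomal protein gene, the summits b and c of mTEChi replicate 1 at 74270304 and 74270690 on chromosome X scored 18.4 and 15.3, and a and b of mTEChi replicate 2 at 74270361 and 74270706 scored 7.23 and 13.6. The mTEClo lists had unsplit peaks at 74270329 and 74270705 in replicate 1, with 5.66 and 11.3, and at 74270296 and 74270715 in replicate 2, with 6.004 and 16.1. Both states thus had a summit at each position in both libraries. At Mlf2, on chromosome 6, the same held the other way round: mTEChi listed unsplit peaks at 124930927 and 124931356, with 13.8 and 3.19, in replicate 1 and at 124930892 and 124931336, with 5.12 and 2.85, in replicate 2. In mTEClo they were joined, with 18.7 and 7.097 in replicate 1 and 20.8 and 2.86 in replicate 2.

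At other loci only 1 summit was listed in at least 1 library of the unsplit state. Def6 (chr17:28223742-28224493), a gene of lymphocyte signalling, had 1 unsplit summit in mTEChi, with 32.9 and 29.7. In mTEClo the summit at that place scored 21.6 and 18.0, beside a lower one of 7.15 and 3.47. Ensa, whose product inhibits the phosphatase PP2A, had 34.3 and 18.2 in mTEChi and, in mTEClo, 16.1 and 20.5 with a second summit of 9.61 and 5.83. Its mTEChi replicate 1 summit, at 95625117, lay between the mTEClo replicate 1 positions 95624909 and 95625276. Rhbdl2, a rhomboid protease gene, was split in mTEChi with 14.1 and 18.9 in replicate 1 and 9.20 and 11.3 in replicate 2, and had 1 summit of 6.21 and 15.3 in mTEClo. Tom1, an endosomal sorting gene, had 15.8 and 11.2 in mTEChi replicate 1 and 5.97 and 9.498 in mTEChi replicate 2, against 1 summit of 17.7 and 8.66 in mTEClo. That summit lay at 75033842 in mTEClo replicate 1 and at 75033561 in mTEClo replicate 2. The nearest mTEChi summit was the one of higher coordinate for replicate 1 and of lower coordinate for replicate 2. At Cct7 and Pradc1, which lie on opposite strands, the higher summit scored 38.2 and 16.1 in mTEChi and 19.3 and 13.2 in mTEClo; the second scored 4.78 and 7.13 in mTEChi and 7.78 as an unsplit peak in mTEClo replicate 1. The same rule named Pip4p1, Kdm3a, Dyrk3 and chr14:71628440-71629395 for mTEChi, and Syde2, 2810006K23Rik, Ifitm2, Mreg and chr6:31075279-31076010 for mTEClo.

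By gene, a split summit lay within 5 kb of 1250 and 679 protein-coding genes in mTEChi and 1505 and 703 in mTEClo, a mean of 964.5 ± 404 in mTEChi and 1104 ± 567 in mTEClo (SD, n = 2 each; two-sided exact permutation test, p = 0.667). Without mTEChi replicate 2 the difference was 146 and without mTEClo replicate 1 it was 261.5, both of the opposite sign to the -139.5 of all 4 libraries. Of 21631 genes, 183 (0.846%) were split in both mTEChi libraries, 163 (0.754%) in both mTEClo libraries and 28 (0.129%) in all 4. Both mTEChi and no mTEClo library were split at 96 genes (0.444%), and both mTEClo and no mTEChi library at 96 (0.444%). A gene was split in at least 1 library in 3332 cases (15.4%). With this window of 5 kb, a gene split in several libraries need not be split at the same site.

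Of 44 genes listed as p53 targets, 17 (38.6%) had a split peak in at least 1 library, beside 15.4% of all genes, and 29 (65.9%) had a peak of some form in all 4, beside 36% of all genes. None was split in all 4 libraries, beside 0.129% of all genes. In both libraries of 1 state only, 1 member (2.27%) was split for mTEChi and 2 (4.55%) for mTEClo, beside 0.444% of all genes for each state. With so few members these shares are a description only and were not tested. The mTEChi member was Sesn1, which encodes a stress-induced regulator of mTORC1. Its letter-marked summits scored 9.71 and 2.77 in mTEChi replicate 1 and 4.88 in mTEChi replicate 2, and mTEClo had unsplit peaks of 5.52 and 4.42 nearby. Rrm2b, which encodes a ribonucleotide reductase subunit, was split in both mTEClo libraries, with 3.17 and 10.6 in mTEClo replicate 1 and 6.004 in mTEClo replicate 2, against unsplit peaks of 8.46 and 6.61 in mTEChi. Pml, the other member of that kind, was split at different sites in the 2 mTEClo libraries, at 58220309 and 58215108 on chromosome 9. The members split in 2 libraries across states were Ddit4, Ppm1d and Eda2r, and those split in 1 were Ercc5, Ccng1, Fdxr, Bcl6, Cdkn1a, Fas, Trp53i11, Pltp, Sesn2, Sfn and Bbc3.

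Of 30 genes of medullary thymic epithelial identity, 8 (26.7%) were split in at least 1 library, beside 15.4% of all genes. Some peak in all 4 libraries was listed for 21 (70.0%), beside 36% of all genes. Aire was split in 2 libraries, and Tnfrsf11a, H2-Eb1, Epcam, Cd40, Cd74 and Cd80 were among those split in 1. At Aire, whose product switches on tissue-restricted antigen genes, the letter-marked summit of mTEChi replicate 1 scored 11.8 and lay 3126 bp outside the gene. That of mTEClo replicate 2 scored 3.94 and lay 87 bp outside the same boundary of the gene, so the same place was not split. None of 15 thymocyte genes was split, and 4 (26.7%) had some peak in all 4 libraries. Of 20 Aire-dependent antigen genes 1, Pcp4, was split.

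Gene families differed in how often they carried split peaks, as counts only. Of 92 genes whose symbols start with Rpl or Rps, a set that takes in the kinase genes Rps6ka1 and Rps6ka5, 24 (26.1%) were split in at least 1 library, beside 15.4% of all genes. Of these, 2 (2.17% of the 92), Rpl4 and Rpl10, were split in both mTEChi and no mTEClo library, beside 0.444% of all genes. Of 397 genes named Zfp, 86 (21.7%) were split, 3 of them (0.756% of the 397) in both mTEChi and 6 (1.51%) in both mTEClo libraries, beside 0.846% and 0.754% of all genes. The site was not always the same. Zfp697, Zfp382, Zfp719 and Zfp180 were split in the 2 mTEClo libraries at sites more than 1 kb apart, as was Zfp689 in the 2 mTEChi libraries. Of those split at nearby sites, Zfp788 scored 9.71 and 7.11 in mTEChi replicate 1 and 3.42 and 9.02 in mTEChi replicate 2. Zfp146 had 9.18 in mTEClo replicate 1 and 5.72 and 5.23 in mTEClo replicate 2. Of 67 histone cluster genes 2 (2.99%) were split, and 40 (59.7%) had some peak in all 4 libraries, beside 36% of all genes. The counts were 3 of 39 for Hox genes, 2 of 57 for clustered protocadherin genes and 10 of 1110 (0.901%) for olfactory receptor genes. The share with some peak in all 4 libraries also differed between families. It was 60.9% for Rpl and Rps, 39.0% for Zfp, 23.1% for Hox, 10.5% for clustered protocadherin and 0.360% for olfactory receptor genes. Its part in the split counts was not tested. Neighbouring members of these clusters can share 1 split peak, as Olfr543 and Olfr544 did.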

How the data were processed

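The 4 libraries were grouped and numbered by their titles, and the replicate numbers are not stated to pair samples. Reads were processed with MACS2 2.2.7.1, Bowtie2 2.2.9, SAMtools 1.9 and Picard on mm10, per the submitters' processing notes, which as used here name no settings or control. The authors deposited, per library, summits with 150 bp on each side and a score read as −log10 of a q-value or p-value, with a minimum of 2.00. Read counts are not in these lists, so the depth is unknown.

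Summits sharing a name without the final letter were joined, and peaks overlapping by at least 1 bp were merged across libraries. Distances used 21631 RefSeq protein-coding genes and the starts of the RefSeq promoter table (GRCm38.p6, the assembly of mm10). Loci were named by the nearest gene within 50 kb; the text names up to 20 loci split in all 4 libraries, up to 8 of each state class, ordered by listed summits and then score rank, and list members split in both libraries of 1 state. Wilson intervals (95%) cover counting error only. States were compared by exact permutation tests over libraries, and split with single-summit peaks by exact sign-flip tests over the 4 within-library differences. The members, lists, tests and naming rule were chosen with earlier results of these data known. The joining and merging steps were tested on simulated data. Python 3.11.15, numpy 2.4.6, pandas 2.3.3 and matplotlib 3.10.9 were used. Alternatives are given in the closing section.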

Additional observations from a re-analysis of the deposited data

How the results depend on the processing

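Split peaks exceeded single-summit peaks under every alternative run, by 11.4 to 27.6 percentage points near gene ends and by 12.4 to 49.6 points in being met again; the lowest value of the second came from asking for the highest summit within 75 bp of a summit of the other library, an alternative chosen after seeing the data, as were the highest 25% by score, the 1-summit split peaks and the transcription starts. The mTEChi minus mTEClo differences in number, share, genes and share near gene ends were smaller than the SD of either state and changed sign as follows, while those in span (10 bp), spacing (9 bp) and summits per split peak (0.053) lay between the smaller SD, of mTEClo, and the larger, of mTEChi. With only split peaks of at least 2 listed summits the share differed by 0.048 points and the genes by 39.5. With summits above the median score the number differed by 94, the share by 0.365 points and the genes by 90.5. With split peaks of 1 listed summit the share near gene ends differed by -0.409 points. Leaving out 1 library gave -1105 to 347 for the number, -1.24 to 0.586 points for the share and -540.5 to 261.5 for the genes. The cause was not tested.

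Counts of loci depend on what counts as split. Loci split in all 4 libraries numbered 6 with at least 2 listed summits, 6 above the median score and 6 with summits within 75 bp. The mTEChi loci numbered 36, 26 and 54, and the mTEClo loci 23, 11 and 57, under the same 3 settings. Leaving out 1 library, which asks for fewer libraries, gave 26 to 47, 109 to 2088 and 108 to 2605. With the replicate number as a block, the difference in number was -379, from -527 and -231 in the 2 pairs, and in genes -139.5; 2 pairs give no p below 0.5 in an exact test, no call changed, and no block value could be had for counts of loci or for splits met by splits. Equal list lengths left the number of libraries split as it was at all 51 named loci, while it moved at 24 with at least 2 listed summits and at 31 above the median score. Lists without reads limit all values to what the authors' caller passed.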

Other observations

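Split peaks also lay near other kinds of annotated gene. A small nuclear RNA gene, whose products work in the spliceosome, lay within 1 kb of the highest summit of 16 and 5 split peaks in mTEChi and of 5 and 5 in mTEClo. These are 0.683% and 0.421% of split peaks in mTEChi and 0.174% and 0.352% in mTEClo, against 0.0925% and 0.110% of single-summit peaks in mTEChi and 0.0697% and 0.0814% in mTEClo. A long non-coding RNA gene lay as near to 6.91% and 7.49% of split peaks in mTEChi and 7.91% and 6.84% in mTEClo, against 3.94% and 3.71% of single-summit peaks in mTEChi and 4.39% and 4.04% in mTEClo. Both kinds were higher for split peaks in 4 of 4 libraries. Pseudogenes lay near 0.853% and 0.758% of split peaks in mTEChi and 0.697% and 0.846% in mTEClo, against 0.793% and 0.920% of single-summit peaks in mTEChi and 0.980% and 0.893% in mTEClo, with no common direction. These shares were not tested, and chromosome X held 12 and 4 split peaks in mTEChi and 7 and 2 in mTEClo, which are 0.512% and 0.337% in mTEChi and 0.244% and 0.141% in mTEClo, against 0.683% and 0.894% of single-summit peaks in mTEChi and 0.503% and 0.335% in mTEClo.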
